A study of Mus musculus with 16 samples.

Results

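The 9 genes described here encode the transcription factors that direct the formation of skeletal muscle, and their RNA was followed across 16 mouse osteosarcomas (OS), malignant tumors of bone. The genes were chosen by name, without use of any measured value: *Myod1*, *Myog*, *Myf5* and *Myf6* of the MyoD family, the paired box genes *Pax3* and *Pax7*, and the MEF2 genes *Mef2a*, *Mef2c* and *Mef2d*. All 9 were among the 25054 genes of the count table. The question was how much RNA of each factor every tumor held, and whether it followed the RNA of mature muscle. The tumors came from mice with an OsxCreERT2 allele, a tamoxifen-inducible Cre that is driven by the *Osx* (*Sp7*) promoter of bone-forming cells, and with floxed p53 (*Trp53*) and *Rb1*, which both groups carried. The 8 tumors labeled KO came from 8 mice that also carried floxed *Arid1a* on both alleles, a subunit gene of the BAF chromatin remodeling complex. The 8 tumors labeled WT came from 4 mice without floxed *Arid1a*: 4 tumors of N42, 2 of N43, 1 of N215 and 1 of N25. All mice received 400 μg tamoxifen per gram at 1 month of age and were over 6 months old at collection. For the KO tumors no body site is named in the labels. The tests treat each tumor as separate, although tumors of the same WT mouse are not independent.

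Muscle formation runs through a hierarchy of these factors. PAX3 and PAX7 mark muscle progenitors, and PAX7 marks the satellite cells that repair adult muscle. MYF5 and MYOD commit cells to the muscle lineage, myogenin (*Myog*) drives their differentiation, and MRF4 (*Myf6*) is the family member that prevails in mature fibers. The MyoD family proteins pair with E proteins and bind the E-box CANNTG, and the MEF2 proteins bind an A/T-rich site and act together with them. MEF2 proteins are not restricted to muscle and also act in bone, cartilage, blood vessels, neurons and lymphocytes. *Acta1*, skeletal muscle actin, and *Ckm*, muscle creatine kinase, are products of the mature fiber.

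The KO libraries held between 1109487 and 15059640 counts and the WT libraries between 7806160 and 16962329. Levels are given as CPM, the count relative to the TMM-normalized library size. Massa and Grilka were sequenced least, and 3 counts there amount to 5.83 and 3.76 CPM, so that a 0 in these tumors says little about a low gene. In the other 14 tumors 3 counts amount to 0.148 to 0.794 CPM. Counted over the whole gene, which includes exons that Cre does not delete, *Arid1a* ranged from 93.3 to 252 CPM in the tumors labeled KO and from 127 to 223 CPM in those labeled WT, so it did not check the labels. Of the osteoblast markers, *Runx2* was detected in all 16 tumors, with at least 6.34 CPM in KO and 27.01 CPM in WT, while *Sp7* was at 0 in 1 KO tumor. *Alpl*, *Ibsp* and *Col1a1* were also detected in all 16, at widely differing levels. *Bglap* and *Bglap2* were at 0 in Massa and in the hind limb tumor of N215, and *Dmp1* was at 0 in Prince. Montana held 3.52 CPM of *Sp7*, 10.8 CPM of *Alpl* and 0.470 CPM each of *Bglap* and *Dmp1*. Zelda carried B cell RNA (*Cd79a* at 71.4 CPM), and the lung tumor of N25 carried cardiac muscle RNA (the atrial gene *Myl7* at 10.3 CPM, against at most 1.94 CPM in any other tumor). *Ryr2* was also highest in N25 (48.9 CPM), but the other cardiac markers were not. *Myh6* stood at 127 CPM in N25 and 156 CPM in Montana, and *Myl4* at 8.16 CPM in N25 and 19.5 CPM in the right pelvis tumor of N42. *Tnni3* and *Nppa* were highest in Massa, at 15.5 and 1.94 CPM, against 10.4 and 1.36 CPM in N25.

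The muscle index of a tumor was the mean of the log2 CPM of *Acta1* and *Ckm*, so it rises by 1 for each log2 unit of these genes. It ran from -2.32 in Zelda to 13.96 in Oregon. *Acta1* reached 13733 CPM in Oregon and 9823 CPM in Montana, both labeled KO, and at most 1331 CPM in any other tumor. Both ends of the index were held by KO tumors, with Zelda and Massa at the low end, and 6 of the 8 WT tumors lay between 6.60 and 9.71. Whether this RNA came from muscle beside the tumor, muscle within it or the tumor cells was not tested, and in bulk RNA fewer cells of a type and less RNA per cell cannot be told apart.

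**Figure D1:**
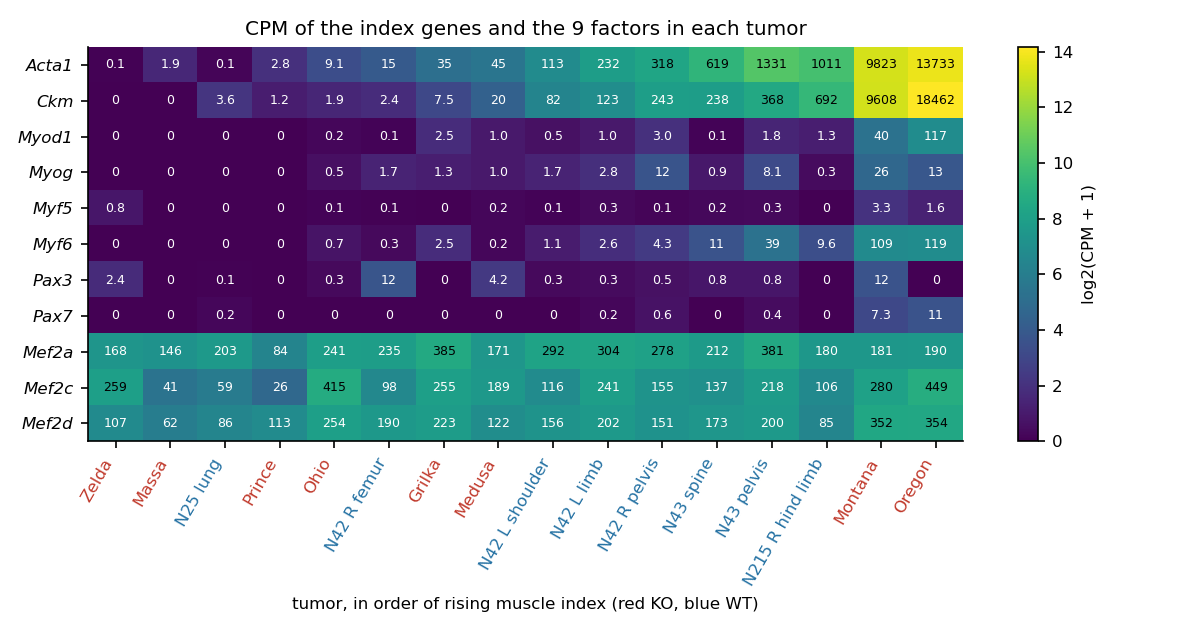
Levels of *Acta1*, *Ckm* and the 9 factors in each of the 16 tumors, in CPM (numbers in the cells) on a color scale of log2(CPM + 1); tumors stand in order of rising muscle index, with KO names in red and WT names in blue. The MyoD family rises toward the right, where Montana and Oregon stand, while the 3 MEF2 genes are at 26.3 CPM or more in every tumor.

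The MyoD family as a whole was at 0 in 3 tumors, Massa, Prince and the lung tumor of N25, and was most abundant in Montana and Oregon. The 4 genes together took 3702 raw counts over all tumors, and 46.2% of them lay in Montana and Oregon, a share that is not corrected for depth. In CPM the 4 genes summed to 251 in Oregon and 178 in Montana, and to 49.4 in the next tumor, the pelvis tumor of N43. *Myod1* (chromosome 7, 46376474 to 46379099 in GRCm38), the lineage determinant, had a lowest, median and highest level of 0, 0.592 and 117 CPM in KO and of 0, 0.762 and 2.96 CPM in WT. The 2 KO tumors at the top were Oregon with 117 CPM and Montana with 39.9 CPM, and the other 6 lay at 2.51 CPM or less, within the range of the WT tumors. The median of KO was therefore slightly below that of WT while its mean, 20.1 ± 41.6 CPM (SD, n = 8), was above the WT mean of 0.973 ± 1.02 CPM (SD, n = 8).

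*Myog* (chromosome 1, 134289989 to 134292548), the differentiation factor, had levels of 0, 0.734 and 26.1 CPM in KO and of 0, 1.67 and 11.95 CPM in WT, again as lowest, median and highest. Its order differed from that of *Myod1*: Montana led with 26.1 CPM, Oregon followed with 13.2 CPM, and the right pelvis tumor of N42 held nearly as much, 11.95 CPM. The hind limb tumor of N215 had the highest muscle index among the WT tumors and 0.321 CPM of *Myog*, from 3 counts. Thus *Myog* could be low in a tumor with much mature muscle RNA.

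*Myh3* and *Myh8*, the embryonic and perinatal myosin heavy chain genes, had the levels most like those of *Myog* across the 16 tumors. The 250 bases before the start sites of the 3 genes are therefore shown (GRCm38.p6, sequence from RefSeq). Capitals mark E-boxes (CANNTG) and matches to the core of the MEF2 site (CTANNNNTA, read on both strands).
*Myog* (chr1:134289754-134290003, plus strand): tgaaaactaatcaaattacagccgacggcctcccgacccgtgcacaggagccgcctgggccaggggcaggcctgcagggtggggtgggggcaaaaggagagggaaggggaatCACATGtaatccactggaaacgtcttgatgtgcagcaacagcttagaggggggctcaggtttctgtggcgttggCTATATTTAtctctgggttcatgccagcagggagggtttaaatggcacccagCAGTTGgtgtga
*Myh3* (chr11:67078050-67078299, plus strand): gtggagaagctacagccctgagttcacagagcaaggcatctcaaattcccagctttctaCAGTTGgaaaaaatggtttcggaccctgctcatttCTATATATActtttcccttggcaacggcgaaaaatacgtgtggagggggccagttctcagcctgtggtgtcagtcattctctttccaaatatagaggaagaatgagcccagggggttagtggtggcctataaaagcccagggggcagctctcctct
*Myh8* (chr11:67276874-67277123, plus strand): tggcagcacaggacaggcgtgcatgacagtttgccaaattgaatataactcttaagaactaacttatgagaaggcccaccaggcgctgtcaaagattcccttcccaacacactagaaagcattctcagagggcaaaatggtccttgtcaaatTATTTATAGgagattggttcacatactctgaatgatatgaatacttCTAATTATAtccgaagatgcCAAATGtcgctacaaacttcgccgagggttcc
The *Myog* window held the E-boxes CACATG and CAGTTG, which began 138 and 12 bases before the start, and the MEF2 core CTATATTTA 64 bases before it. *Myh3* held CAGTTG and CTATATATA, 191 and 156 bases before its start. *Myh8* held CAAATG 32 bases before the start and the MEF2 cores TATTTATAG and CTAATTATA 98 and 52 bases before it. Among 32851 promoter windows of the same length, 66.2% held CANNTG, 19.0% held the MEF2 core and 4271 windows held CAGCTG, a form of CANNTG that the MyoD family binds and that none of these 3 windows held. A match is a description of the letters. Of the 9 factors 6 had a window in the RefSeq table, and *Myod1*, *Myf6* and *Pax3* had no entry.

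*Myf6* (chromosome 10, 107492853 to 107494737), the factor of mature fibers, was the most abundant of the family in the tumors with the most mature muscle RNA. Its lowest, median and highest levels were 0, 0.432 and 119 CPM in KO and 0, 3.48 and 39.2 CPM in WT. Oregon held 119 CPM and Montana 109 CPM, and the WT tumors that came next, the pelvis and the spine tumor of N43 and the hind limb tumor of N215, held 39.2, 11.4 and 9.62 CPM. These 5 tumors also had the 5 highest muscle indices of all 16. *Myf5* (chromosome 10, 107482908 to 107486134), the neighbor of *Myf6* and an early commitment factor, did not exceed 14 counts in any tumor, which was reached in Montana (3.29 CPM). Its second highest count, 12 (0.831 CPM), was in Zelda, where the other 3 family members and *Ckm* were at 0 and *Acta1* had 1 count. No 50-base stretch of the 4 transcripts was shared with another gene of the annotation, so reads of this length can be assigned to each of them.

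The make-up of the family differed between tumors of similar muscle content. In the 9 tumors with at least 20 counts on the 4 genes, of which 2 were KO and 7 WT, each gene was taken as a share of these raw counts. The share compares the same gene across tumors, not genes with each other. *Myog* took 61.6% of the counts in the right pelvis tumor of N42 (95% exact interval 56.6 to 66.4%) and 6.90% in the spine tumor of N43 (3.99 to 10.96%), although their muscle indices were 8.12 and 8.58. All 4 tumors of N42 had *Myog* shares between 42.2 and 78.4%, and the other 5 tumors had shares between 2.86 and 16.5%. The intervals of these 2 sets did not overlap, since the lowest bound in N42 was 33.5% and the highest elsewhere was 18.9%. The intervals cover counting error only, the contrast was chosen after the values were seen, and the 4 tumors of N42 are from 1 mouse, so no test was made.

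*Myf6* took the opposite place, with 13.5 to 39.1% of the counts in N42 and 47.5 to 90.5% in the other 5 tumors. *Myod1* took its largest share in Oregon, 46.6% (43.4 to 49.9%), and its second largest in Montana, 22.4% (19.5 to 25.5%). In the WT tumors its share was at most 15.5%. Per kilobase of annotated exon, which takes the length of each gene into account, *Myf6* was the highest of the family in 6 of these 9 tumors and *Myog* in 3, all from N42.

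**Figure D2:**
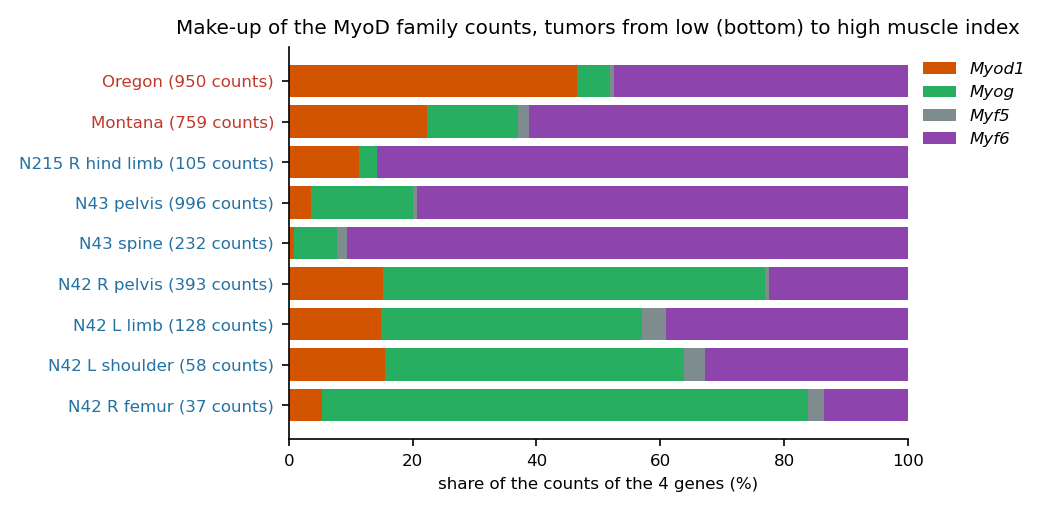
Share of each MyoD family gene in the summed raw counts of the 4 genes (x axis, percent) for the 9 tumors with at least 20 such counts, ordered from low (bottom) to high (top) muscle index; the number of counts stands beside each name, KO in red and WT in blue. *Myog* (green) takes 42.2% or more in the 4 tumors of N42 and 16.5% or less in the other 5.

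Set against *Acta1* counts, the 4 genes differed in how steady they were. In the same 9 tumors *Myf6* had between 8.69 and 29.5 counts per 1000 *Acta1* counts, a 3.39-fold range. *Myod1* had between 0.175 and 9.31, a 53.2-fold range, and *Myog* between 0.317 and 109, a 345-fold range. The lowest *Myod1* value was that of the spine tumor of N43 and rests on 2 counts, and without that tumor the range was 7.33-fold. The lowest *Myog* value rests on the 3 counts in N215, and without it the range was 114-fold. Without Oregon, its lowest value, the range of *Myf6* was 3.09-fold, and without the pelvis tumor of N43, its highest, 2.17-fold. In these 9 tumors *Myf6* thus kept nearest to a fixed proportion of *Acta1*. The tumors were admitted by the summed counts of the 4 genes, *Myf6* among them, so tumors with little *Myf6* could drop out beforehand. Medusa, left out with 12 such counts, had 4.42 counts of *Myf6* per 1000 of *Acta1*, from 1 count. The highest *Myog* ratio was in the right femur tumor of N42, with 29 counts of *Myog* beside 265 of *Acta1*.

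The paired box genes were nearly silent and did not move together. *Pax7* (chromosome 4, 139737062 to 139833528), the satellite cell factor, was at 0 in 10 of the 16 tumors. It reached 11.1 CPM in Oregon and 7.28 CPM in Montana, from 42 and 31 counts, and was at most 0.593 CPM elsewhere. *Pax3* (chromosome 1, 78101267 to 78197134), which also acts in neural crest and melanocytes, was highest in the right femur tumor of N42 (12.5 CPM, 216 counts) and in Montana (11.5 CPM, 49 counts). Medusa followed with 4.17 CPM and Zelda with 2.35 CPM, and the remaining 12 tumors held 0.811 CPM or less. Oregon, the tumor with the highest *Pax7*, had no *Pax3* count, and the right femur tumor of N42, with the highest *Pax3*, had no *Pax7* count. In that tumor *Sox10*, a neural crest marker, was at 0.288 CPM and the muscle index at 2.66. *Mitf* was at 35.7 CPM there, where the WT tumors ranged from 17.1 to 45.6 CPM, and the melanocyte markers *Mlana* and *Pmel* at 0.0577 and 0.519 CPM. Prince, with the highest *Sox10* level (110 CPM), had no *Pax3* count. The part of any neural crest cell in the *Pax3* level was not tested.

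The MEF2 genes were abundant in all 16 tumors, whatever their muscle content. *Mef2a* (chromosome 7, 67231163 to 67372858) had a lowest, median and highest level of 84.1, 176 and 385 CPM in KO and of 180, 256 and 381 CPM in WT. *Mef2c* (chromosome 13, 83504034 to 83667080), which is needed in muscle, heart and bone, had levels of 26.3, 257 and 449 CPM in KO and of 58.9, 126 and 241 CPM in WT. *Mef2d* (chromosome 3, 88142372 to 88172086) had levels of 62.2, 173 and 354 CPM in KO and of 85.3, 164 and 202 CPM in WT. The ranges of the groups overlapped for each of the 3 genes.

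*Mef2c* varied most, 17.1-fold over all tumors against 4.58-fold for *Mef2a* and 5.70-fold for *Mef2d*. Its 4 highest KO values were in Oregon (449 CPM), Ohio (415 CPM), Montana (280 CPM) and Zelda (259 CPM), of which Ohio and Zelda had muscle indices of 2.14 and -2.32. In Zelda, *Mef2c* stood beside B cell RNA, with *Pax5* at 129 CPM, and the part of B cells in it was not tested. Per kilobase of annotated exon, *Mef2d* was the highest of the 3 in 16 of 16 tumors. That length counts every annotated exon, whether or not a tumor used it: 5985 bases for *Mef2d*, 14681 for *Mef2a* and 15715 for *Mef2c*. In CPM *Mef2d* was the highest of the 3 only in Prince (113 CPM) and Montana (352 CPM). In every other tumor *Mef2a* or *Mef2c* was, as in Zelda, with 107 CPM of *Mef2d* beside 259 CPM of *Mef2c*. The order thus depends on the length by which the level is divided. A stretch of 8.87% of the *Mef2d* exons overlaps the antisense gene *1700113A16Rik* and 2.06% of the *Mef2a* exons overlap *Lysmd4*. The strand setting of the counting is not given in the sources used here, so reads of these stretches cannot be assigned to either gene.

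Whether each factor followed mature muscle was tested with edgeR over all genes, as the slope of log2 expression on the muscle index with the group as a term. A slope of 1 stands for a gene that changed by the same factor as the index genes, and a slope of 0 for one that did not follow them. Of the 9 factors 6 had enough counts for the test, and 3 of them, all of the MyoD family, rose with the index. Over all 15411 genes tested 5.41% passed, 3.64% with a positive slope. The slope was 0.82 for *Myf6* (SE 0.075, edgeR adjusted *p*-value 1.83e-06), 0.72 for *Myod1* (SE 0.076, adjusted *p*-value 8.13e-06) and 0.53 for *Myog* (SE 0.097, adjusted *p*-value 0.00278). The 95% intervals, 0.66 to 0.98, 0.57 to 0.88 and 0.33 to 0.74, all lay above 0 and below 1.

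The MEF2 genes did not pass. *Mef2d* had a slope of 0.10 (95% interval 0.04 to 0.16, edgeR adjusted *p*-value 0.0502), *Mef2c* of 0.10 (-0.0014 to 0.193, adjusted *p*-value 0.272) and *Mef2a* of 0.02 (-0.04 to 0.09, adjusted *p*-value 0.757). The upper ends of these intervals were below the lower ends for *Myf6*, *Myod1* and *Myog*. *Mef2d* lay at the threshold and passed it with DESeq2 (slope 0.10, adjusted *p*-value 0.00948) and when Ohio, the hind limb tumor of N215 or the right femur tumor of N42 was left out (edgeR adjusted *p*-values 0.0304, 0.0284 and 0.0310). It also passed with an index of 6 other muscle genes (slope 0.11, edgeR adjusted *p*-value 0.0446).

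**Figure D3:**
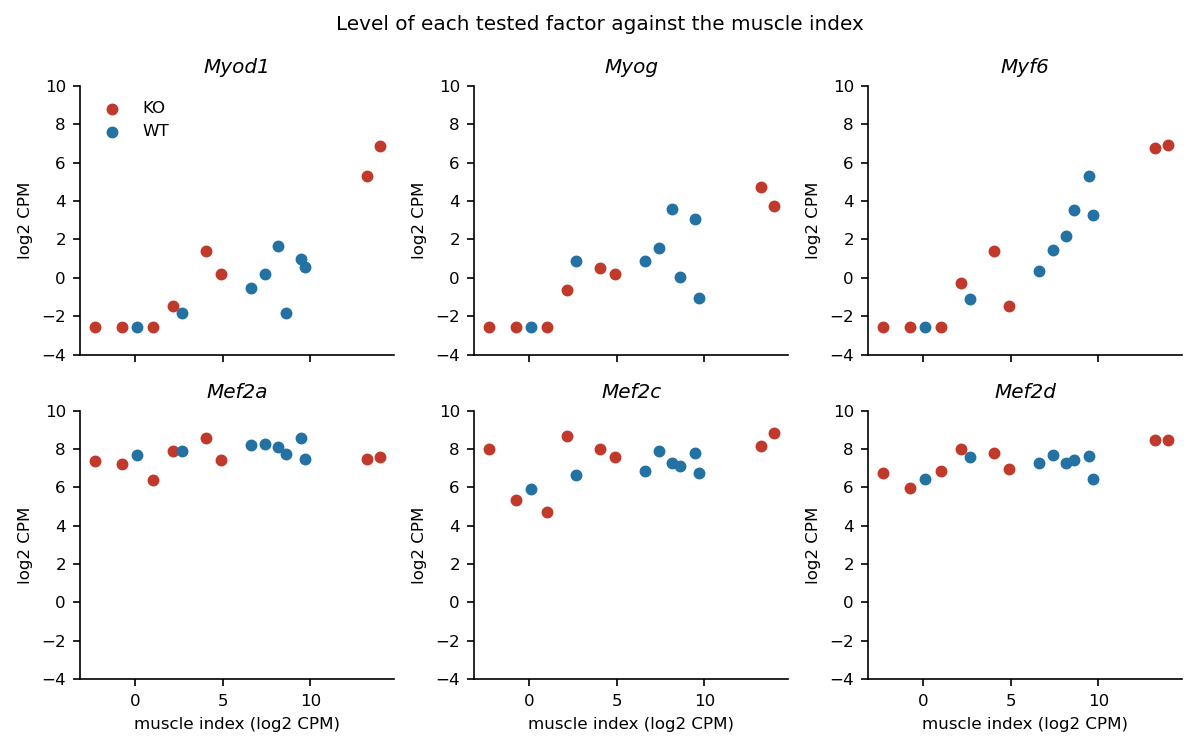
Level of the 6 tested factors (y axis, log2 CPM with a prior count of 2) against the muscle index (x axis, mean log2 CPM of *Acta1* and *Ckm*), 1 point for each tumor, KO in red and WT in blue. The MyoD family climbs from its floor at the left to Montana and Oregon at the right, and the MEF2 genes lie nearly level.

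With Montana and Oregon both left out the slopes were of similar size, and 1 of the 3 genes passed. Over all genes 95 of 16506 passed in that fit, against 834 of 15411 in the main one, so the lost calls are not particular to these genes. *Myf6* then had a slope of 0.98 (edgeR adjusted *p*-value 0.0113), while *Myod1* had a slope of 0.73 (adjusted *p*-value 0.0624) and *Myog* of 0.52 (adjusted *p*-value 0.286). When either was left out singly, all 3 genes passed. Within the WT tumors and without the filter on low counts, *Myf6* again had a slope of 1.01 (edgeR adjusted *p*-value 0.0164), *Myod1* of 0.63 (adjusted *p*-value 0.158) and *Myog* of 0.44 (adjusted *p*-value 0.477). In that fit 491 of 24785 genes passed. Within the KO tumors, fitted the same way, the slopes were 0.75 for *Myf6*, 0.75 for *Myod1* and 0.57 for *Myog*, with edgeR adjusted *p*-values of 0.000824, 0.000462 and 0.0106. Here 728 of 24642 genes passed. The difference between the slopes of KO and WT was tested directly, and passed for 0 of the 6 factors and 0% of all genes in edgeR. In DESeq2 it passed for 0 factors and for 112 of 19709 genes. In edgeR 0 of the 6 had an unadjusted *p*-value under 0.05.

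*Myf5*, *Pax3* and *Pax7* entered only when the low-count filter was dropped, where 9.56% of 25052 genes passed. *Pax7* then had a slope of 0.51 (SE 0.123, edgeR adjusted *p*-value 0.0138), which rests on the counts in Montana and Oregon. *Myf5* had a slope of 0.18 (adjusted *p*-value 0.146) and *Pax3* of 0.03 (adjusted *p*-value 0.936). With DESeq2 *Pax7* had a slope of 0.43 (adjusted *p*-value 0.0527).

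The comparison of the genotypes gave no call among the 6 tested factors, while 4.01% of the 15413 genes tested in edgeR passed. The fitted log2 difference, KO minus WT, was 4.47 for *Myod1* (SE 1.499, edgeR adjusted *p*-value 0.0899), 1.86 for *Myf6* (SE 1.47, adjusted *p*-value 0.477) and 0.78 for *Myog* (SE 1.19, adjusted *p*-value 0.740). It was 0.82 for *Mef2c* (SE 0.467, adjusted *p*-value 0.300), 0.43 for *Mef2d* (SE 0.345, adjusted *p*-value 0.481) and -0.34 for *Mef2a* (SE 0.271, adjusted *p*-value 0.476). Only *Myod1* had an unadjusted *p*-value under 0.05 (0.00819), and DESeq2 and limma-voom, in which the mouse was a random effect, also called 0 factors. Over all genes DESeq2 called 2517 of 20078 and limma-voom 17 of 15413. With counts summed per mouse edgeR called 10 of 16007 genes and 0 factors. Where so few genes passed, 0 factors says little about the factors. The *Myod1* difference was 2.66 in DESeq2 and 1.30 in limma-voom. The intervals were wide, from 1.31 to 7.62 for *Myod1* and from -1.24 to 4.96 for *Myf6*. Without Montana and Oregon the *Myod1* difference was -1.47 (edgeR adjusted *p*-value 0.561), that of *Myf6* -4.71 (adjusted *p*-value 0.118) and that of *Myog* -3.20 (adjusted *p*-value 0.193).

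For all 9 factors the mean log2 CPM was also compared with an exact two-sided permutation test over all ways of choosing 8 of the 16 tumors. Of the 9 factors 0 had a *p*-value under 0.05, where 18.3% of the genes of the table did. On this scale the *Myod1* difference, KO minus WT, was 1.00 (exact permutation *p*-value 0.487), and those of *Myf6* and *Myog* were -0.84 and -0.70 (exact permutation *p*-values 0.620 and 0.579), opposite in sign to the edgeR fit. The smallest *p*-value was that of *Mef2a*, with a mean of 7.50 ± 0.62 (SD, n = 8) in KO and 7.99 ± 0.36 (SD, n = 8) in WT on the log2 CPM scale (exact permutation *p*-value 0.0704). Without Grilka, whose *Mef2a* level of 385 CPM was the highest of the KO tumors, it was 0.00606, and without the hind limb tumor of N215 it was 0.0477. With CPM on raw library totals in place of TMM the *Mef2a* difference was -1.08 and its exact permutation *p*-value 0.00249. With the tumors of each WT mouse summed, 8 KO mice against 4 WT mice, it was 0.301.

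At equal muscle index, with the index as a covariate, edgeR again called 0 of the 6 factors, where 7.3% of 15411 genes passed. The *Myod1* difference fell from 4.47 to 2.03 (SE 0.698, edgeR adjusted *p*-value 0.0818), that of *Myf6* was 0.07 (SE 1.21, adjusted *p*-value 0.982) and that of *Myog* -0.72 (SE 0.802, adjusted *p*-value 0.622). *Mef2c* differed by 1.00 (95% interval 0.07 to 1.92, adjusted *p*-value 0.168). *Myod1* and *Mef2c* had unadjusted *p*-values under 0.05, 0.00967 and 0.0364. DESeq2 called 2 of 9 factors in this comparison, where it called 3083 of 22137 genes. The 2 factors were *Myod1* with a log2 difference of 2.23 (DESeq2 adjusted *p*-value 0.0122) and *Myf5* with 2.77 (DESeq2 adjusted *p*-value 0.0325), the latter from at most 14 counts in a tumor. In the same comparison all 6 macrophage markers were lower in KO, with log2 differences from -2.35 to -1.80, and their part in these values was not tested.

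The genes that the MyoD family is known to switch on in differentiating muscle rose along the index in 9 of 12 tested cases, with a median slope of 0.50 beside -0.01 over all genes tested. Among them were *Myh3* and *Myh8*, the embryonic and perinatal myosin heavy chains, with slopes of 0.50 and 0.70, and *Klhl41* and *Jsrp1* with 0.66 and 0.81. *Chrna1*, the alpha subunit of the muscle acetylcholine receptor, had a slope of 0.49. *Cdkn1a*, *Chrnb1* and *Ncam1* did not pass. *Acta1* and *Ckm*, which make the index, are products of the mature fiber, so a rise of other such products describes the index and is no separate result. Of 22 other products of the mature fiber 21 rose, beside 3.64% of all genes tested. Their median slope was 0.79, and the fast myosin *Myh4* had a slope of 1.21. The exception was *Myh7*, the slow and cardiac myosin, which stood at 1693 CPM in Montana, 64.7 CPM in the N25 lung tumor and 38.7 CPM in Oregon. Without Montana and Oregon the first list had 2 genes past the threshold, in a fit where 95 of 16506 genes passed.

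The partners and regulators of the factors moved far less. The E proteins *Tcf3*, *Tcf4* and *Tcf12*, with which the MyoD family pairs, had slopes between -0.01 and 0.02, and 0 of 3 passed in edgeR (adjusted *p*-values from 0.853 to 0.880), at an unadjusted *p*-value under 0.05 or in DESeq2. Of 9 inhibitors of these factors, among them the Id and Twist genes, only *Bhlhe41* passed (slope 0.17, edgeR adjusted *p*-value 0.0324), and 0 passed without Montana, without Oregon, without Ohio or without Zelda, and 2 without the spine tumor of N43. Of 8 MEF2 regulators *Hdac4*, a class IIa deacetylase that represses MEF2, and *Mamstr*, a MEF2 coactivator, passed, with slopes of 0.14 and 0.25 (edgeR adjusted *p*-values 0.00130 and 0.0342), and 1 passed when any 1 of the KO tumors was left out. Of 9 tested factors upstream of the MyoD family, such as *Eya1*, *Eya4* passed (slope 0.33, edgeR adjusted *p*-value 0.00417), and 0 passed without Oregon and 2 without Prince.

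Of the markers of satellite cells other than *Pax7*, *Itga7*, an integrin that mature fibers carry as well, rose along the index among the 6 tested (slope 0.29, edgeR adjusted *p*-value 0.00616). Without the low-count filter, the fit in which *Pax7* passed, *Itga7* and *Chodl* passed among 8, *Chodl* with a slope of 0.62 (edgeR adjusted *p*-value 0.000911), and DESeq2 called the same 2 genes. *Chodl* was highest in Montana (15.3 CPM), the hind limb tumor of N215 (11.4 CPM) and Oregon (7.15 CPM). *Cdh15* (M-cadherin) had a slope of 0.13 (adjusted *p*-value 0.562) and was highest in Medusa, at 62.5 CPM, where *Pax7* was at 0. In Oregon and Montana *Cdh15* was at 33.9 and 47.9 CPM. Of the osteoblast markers 0 of 8 passed along the index in edgeR, and of the macrophage markers 0 of 6, also at an unadjusted *p*-value under 0.05 and in DESeq2. Single markers of other cell types did rise with the index in edgeR. They were the kinase gene *Camk2a* of the neuron list (slope 0.45, adjusted *p*-value 0.000106), the cartilage matrix gene *Comp* (slope 0.44, adjusted *p*-value 9.87e-05) and *Mitf* of the melanocyte list (slope 0.10, adjusted *p*-value 0.0168). Tested were 2 neuron markers, 5 cartilage markers and 1 of the melanocyte list, and 1 of each passed. Of 4 smooth muscle markers tested, 1 passed, *Des* (slope 0.45, edgeR adjusted *p*-value 0.000719), which is also on the list of MyoD targets. Of the cardiac markers 0 of 2 passed in edgeR. Without the low-count filter 1 of 5 neuron markers passed. *Camk2a* stood at 402 CPM in Oregon and 214 CPM in Montana, and at 24.4 CPM or less in every other tumor. In Oregon and Montana the other neuron markers were at 0.705 CPM or less. DESeq2 also called *Col2a1* and *S100b* with positive slopes. With negative slopes it called the cardiac marker *Myl7* and all 5 B cell markers, genes that did not pass the low-count filter in edgeR. The part of these cell types in the slopes of the factors was not tested.

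Between the genotypes 0 of the 22 mature fiber genes passed in edgeR, with 3 at an unadjusted *p*-value under 0.05 and 0 in DESeq2. Of the 12 tested MyoD targets 0 passed in edgeR, with 3 at an unadjusted *p*-value under 0.05, and DESeq2 called 1. *Acta1* and *Ckm* themselves did not pass, at log2 differences of 2.77 and 4.06 (edgeR), and both were highest in Montana and Oregon.

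**Figure D4:**
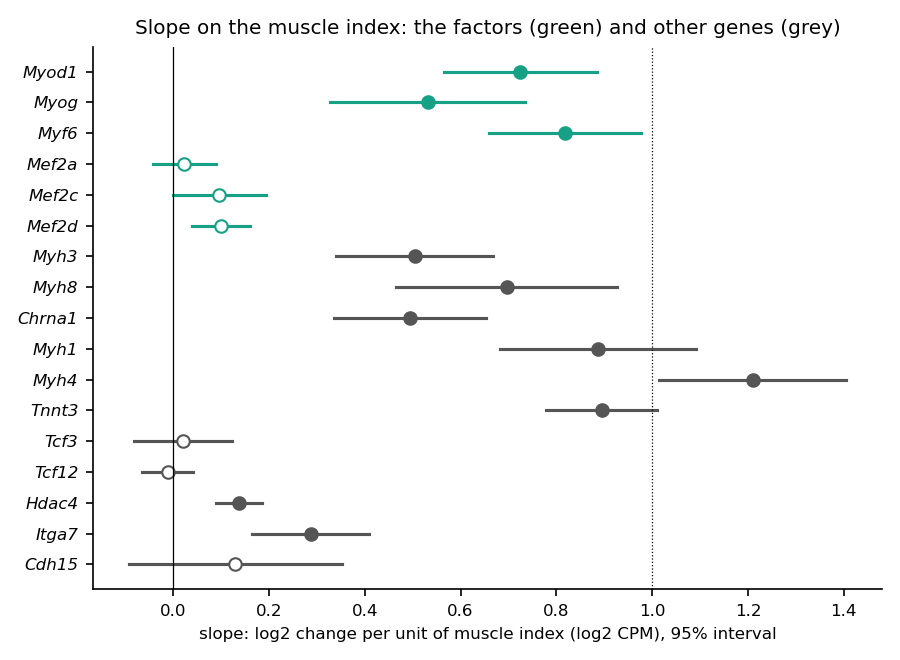
Slope on the muscle index (x axis, log2 change per unit of the index) with its 95% interval for the 6 tested factors (green) and 11 other genes (grey); filled points passed the threshold in edgeR, open points did not, and the dotted line marks a slope of 1. *Myod1*, *Myog* and *Myf6* lie between 0.53 and 0.82, near *Myh3* and *Myh8*, and the MEF2 genes lie at 0.10 or less.

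The genes most like each factor were read from the Pearson correlation of log2 CPM over the 16 tumors, as a description in which tumors share mice and the muscle index. *Myog* was most like *Myh3* (r = 0.98), *Myh8* (r = 0.97) and *Sgca*, alpha-sarcoglycan (r = 0.91). *Myf6* was most like *Smpx*, *Cacng1* and *Mybph*, each with r = 0.97, all of which encode proteins of the muscle fiber. *Myod1* was most like *Tpm1*, a tropomyosin (r = 0.96), followed by *Uqcc2* (r = 0.94) and *Cpt1b*, the muscle carnitine palmitoyltransferase (r = 0.93).

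*Myh3* and *Myh8*, whose promoter windows are printed with that of *Myog*, were chosen for their likeness to *Myog* over these same tumors, and their levels are given as a description of that likeness. In the right pelvis tumor of N42 *Myh3* and *Myh8* were at 20.0 and 36.5 CPM, and in the hind limb tumor of N215, with more mature muscle RNA, they were at 1.07 and 0.107 CPM. In the pelvis tumor of N43 they were at 18.9 and 40.1 CPM and in its spine tumor at 3.03 and 3.57 CPM, where *Myog* was at 8.14 and 0.865 CPM. The MEF2 genes had other neighbors: *Mef2a* was most like *Hoxa7* (r = 0.86), *Lox* (r = 0.85) and *Mmp13* (r = 0.85), *Mef2c* like *Rnf157* (r = 0.90), *Mlip* (r = 0.89) and *Cdh15* (r = 0.87), and *Mef2d* like *Rapgef1* (r = 0.92), *Man2a2* (r = 0.90) and *Abcf2* (r = 0.88).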

How the data were processed

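RNA of 16 osteosarcomas was prepared with the TruSeq kit after ribosomal RNA removal and read for 50 cycles from one end. According to the paper and the submitters' notes, reads were aligned with Novoalign 2.08.01 to mm10 and Ensembl transcript models, with the best of up to 50 alignments kept, and counted per gene with USeq for DESeq2 1.26.0. The values used are the raw counts per gene that the authors deposited. The library strand is not given in the sources used here.

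Groups came from the genotype labels, and tumors with the same animal code were taken as 1 mouse. Counts were normalized by TMM and tested in edgeR 4.0.16 (R 4.3.3; filterByExpr at its defaults, a count of 10 and a total of 15, then glmQLFit, glmQLFTest), two-sided, with Benjamini-Hochberg adjustment over all genes and a threshold of 0.05. SEs were derived from the F statistic. Log2 CPM used a prior count of 2. *Acta1* and *Ckm* were left out of the fits that contain the muscle index. Alternatives included a muscle index of 6 other genes, and used DESeq2 1.42.0, limma 3.58.1 and Python 3.11.15 with scipy 1.17.1. Scripts were tested on simulated data. Positions came from GENCODE vM21 (GRCm38), where 24997 of 25054 identifiers were found. The level per kilobase used the union of all annotated exons.

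All 9 factors are named. For each tested factor the 3 genes with the highest correlation are named, and of other lists at most the 4 members with the smallest adjusted *p*-values and those without which a count cannot be read. *Cdh15*, *Myh7* and *Chrna1*, and values beside single tumors (*Cd79a*, *Pax5*, *Sox10*, *Mitf*, *Mlana*, *Pmel*, *Chodl*, *Camk2a*, the cardiac and the osteoblast markers), were picked after their values were seen. The members and lists were chosen with earlier results of these data known. Nothing shows that tumors of 1 mouse are separate biological samples, so *p*-values may measure the spread between related tumors.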

Additional observations from a re-analysis of the deposited data

Results flagged for a closer look

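In the WT group the *Pax3* level of the right femur tumor of N42 stood apart from the other 7 tumors, at 12.5 CPM, and on the log2 CPM scale its distance to the next tumor was 0.592 of the whole range of the group (the limit of Dixon's test is 0.526 for 8 samples). It rests on 216 counts. The other 3 tumors of the same mouse held between 0.297 and 0.543 CPM. Of 22 groups examined, each 1 gene in 1 genotype, 1 was picked out in this way, and chance alone picks out about 1 in 20.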

How the results depend on the processing

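No paired analysis was possible because KO and WT tumors came from different mice. Depth limits the low factors most: a 0 in Massa allows up to 5.83 CPM. The number of factors that rose along the muscle index, 3, became 1 (*Myf6*) without Montana and Oregon, 0 in the KO tumors alone and 0 in the WT tumors alone, where the low-count filter removed the MyoD family from the test, and 1 (*Myf6*) in the WT tumors without the filter; it was 3 to 4 when single tumors were left out. Over all genes 95 of 16506 passed without Montana and Oregon, 95 of 8062 in the KO tumors alone and 18 of 13921 in the WT tumors alone. The fits within WT tumors, those without the filter within a group and the one without the 4 tumors of lowest index were chosen after seeing the data. At equal muscle index DESeq2 called 2 factors, and 3083 of 22137 genes. In the exact permutation test 1 factor, *Mef2a*, had a *p*-value under 0.05 with raw library totals, and 0 to 1 when single tumors were left out. Signs that turned belonged to differences that were not past the threshold, and the cause was not tested.

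KO versus WT without Montana and Oregon, the log2 difference was -1.47 for *Myod1*, -3.20 for *Myog*, -4.71 for *Myf6* and -0.038 for *Mef2d*. That of *Myog* was -0.48 in DESeq2 and -0.44 to 1.39 when single tumors were left out, negative without Montana, and that of *Myf6* was -0.93 in limma-voom. The slope of *Mef2a* was -0.033 without the 4 tumors of lowest index. At equal muscle index *Myog* was at 0.056 with counts summed per mouse, and *Myf6* was at -0.71 to 0.59 when single tumors were left out, -0.014 without the N25 tumor, -0.15 without the 2 shallowest libraries and -0.13 with an index of 6 other muscle genes. The slope difference, KO minus WT, of *Myog* was -0.22 to 0.33 and of *Mef2a* -0.042 to 0.0062 when single tumors were left out, and that of *Myog* was -0.13 with counts summed per mouse. The permutation difference of *Pax3* was 0.16 with counts summed per mouse and -0.67 to 0.51 when single tumors were left out, positive in 6 of 16, and with raw library totals *Mef2c* was at -0.20 and *Mef2d* at -0.40. No other call on a factor changed under an alternative, apart from *Myod1* and *Myog* losing theirs with Montana and Oregon left out or in WT tumors alone, and *Mef2d* gaining one, at slopes of 0.10 to 0.11.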
